A study of Mus musculus with 4 samples.

Results

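In epididymal fat, 20 genes differed between *Mir342* (-/-) and *Mir342* (+/+) mice in opposite directions on high fat-high sucrose (HFHS) and on standard (STD) chow. They were chosen from 12963 genes by 1 rule: the log2 difference of *Mir342* (-/-) minus *Mir342* (+/+) was at least 0.5 in size (1.41-fold) on each diet, with opposite signs. Of these, 9 genes were higher in *Mir342* (-/-) on HFHS and lower on STD, led by *Irf4*, *Snora20* and *Atp1b1*. The other 11 were lower on HFHS and higher on STD, led by *Slc5a7*, the long noncoding RNA *1700047G03Rik* and *Sfrp5*. The 2 directions hold 0.0694% and 0.0849% of the genes compared. These values chose the genes, so they are a description, and with 1 array per group no difference was tested and none carries an error of its own.

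Total RNA of epididymal fat, the large abdominal fat pad of male mice, was hybridized to GeneChip Mouse Gene 2.0 ST arrays, which report 1 log2 value per transcript cluster through short probes spread over its exons. The 4 arrays came from male C57BL/6J mice, entered at 5 weeks and killed at 16 weeks of age: HFHS *Mir342* (-/-), HFHS *Mir342* (+/+), STD *Mir342* (-/-) and STD *Mir342* (+/+), in the order used for every set of 4 values here. HFHS is the D12331 chow of Research Diet, and STD is a chow of Oriental Yeast. The *Mir342* (-/-) mice lack the microRNA in every cell from conception, through a deletion that a selection cassette replaced in an intron of *Evl*, and the germline chimeras were made on C57BL/6N. The methods name 3 individual animals from each group for the arrays, so each array may hold their pooled RNA, which is not stated. Array values have no read depth, and the number of arrays limits the precision.

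MicroRNAs pair through their seed, bases 2 to 8 from the 5′ end, with messenger RNAs and lower their stability and translation. *Mir342* yields an arm from each side of its hairpin, shown here because their loss defines the *Mir342* (-/-) group, with the seed in capitals (RefSeq, GRCm38.p6, chr12:108658680-108658702 and chr12:108658638-108658659, plus strand).
mmu-miR-342-3p: uCUCACACagaaaucgcacccgu
mmu-miR-342-5p: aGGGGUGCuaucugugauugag
White fat stores triglyceride, and on rich chow its adipocytes enlarge while matrix, vessel and immune cells of the pad adapt. Genotype and diet interact where the effect of 1 depends on the other. The interaction is given here as the genotype difference on HFHS minus the genotype difference on STD, in log2 units, and is positive for the first 9 genes and negative for the other 11.

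The tissue and genotype labels were checked first. All 6 defining adipocyte markers were over the floor of 5.06 on every array. The floor is the 95th percentile of probes for smell and taste receptors. *Adipoq*, the adiponectin gene, measured 10.57, 10.45, 10.51 and 10.16. The *Mir342* probe measured 4.46 in *Mir342* (-/-) and 5.52 in *Mir342* (+/+) on HFHS, and 4.62 against 5.43 on STD. It was thus lower in *Mir342* (-/-) on both diets, but its mean lies under the floor, and where it sits relative to the deletion is not given. The host gene *Evl* was lower in *Mir342* (-/-) on both diets too, at 7.46 against 7.65 on HFHS and at 6.95 against 7.55 on STD. *Snap25*, a SNARE protein of vesicle fusion that the study followed up, measured 6.85, 5.27, 4.91 and 5.11. Its genotype difference was 1.58 on HFHS and -0.20 on STD, so it is not among the 20 genes. The difference on STD is one between dim signals, with STD *Mir342* (-/-) under the floor and STD *Mir342* (+/+) just over it. The paper puts *Snap25* first among genes raised in *Mir342* (-/-) on both diets. That ranking comes from its gene chip of epididymal fat, the data used here, and its own STD comparison also lists *Snap25* at -0.20. By other means, the paper reports *Snap25* RNA higher by RT-qPCR in brain and epididymal fat. It also gives a Western blot of hypothalamus, and a luciferase assay in which a *Mir342* mimic lowered the activity of a *Snap25* reporter.

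Array medians over all 41345 probes lay between 5.06 and 5.14, near the floor, with STD *Mir342* (-/-) the highest. Over the genes compared, the medians were 6.57, 6.62, 6.49 and 6.59, with STD *Mir342* (-/-) the lowest. The distributions of the arrays thus differed in shape. A genotype difference of at least 0.5 was seen for 102 genes higher (0.787%) and 203 lower (1.57%) on HFHS, and for 402 higher (3.1%) and 787 lower (6.07%) on STD. This split between higher and lower depends on the scaling of the arrays. Centred on the median of the genes compared, the counts were 155 higher and 143 lower on HFHS and 828 higher and 455 lower on STD. On STD they were 531 and 586 after quantile normalization, and 296 and 1002 with arrays centred on the median of all probes. Differences in the same direction on both diets were more frequent than opposite ones, with 23 genes higher (0.177%) and 37 lower (0.285%) on both, or 46 and 17 when centred on the genes compared. Of the 102 genes higher on HFHS, 9 (8.82%) were lower on STD, beside 6.07% of all genes, while 23 (22.5%) were higher on STD, beside 3.1%. Of the 203 genes lower on HFHS, 11 (5.42%) were higher on STD, beside 3.1% of all genes, and 37 (18.2%) were lower on STD, beside 6.07%. The share of genes called on 1 diet that reversed on the other was thus above the share of all genes by a smaller factor than the share that kept its direction.

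**Figure D1:**
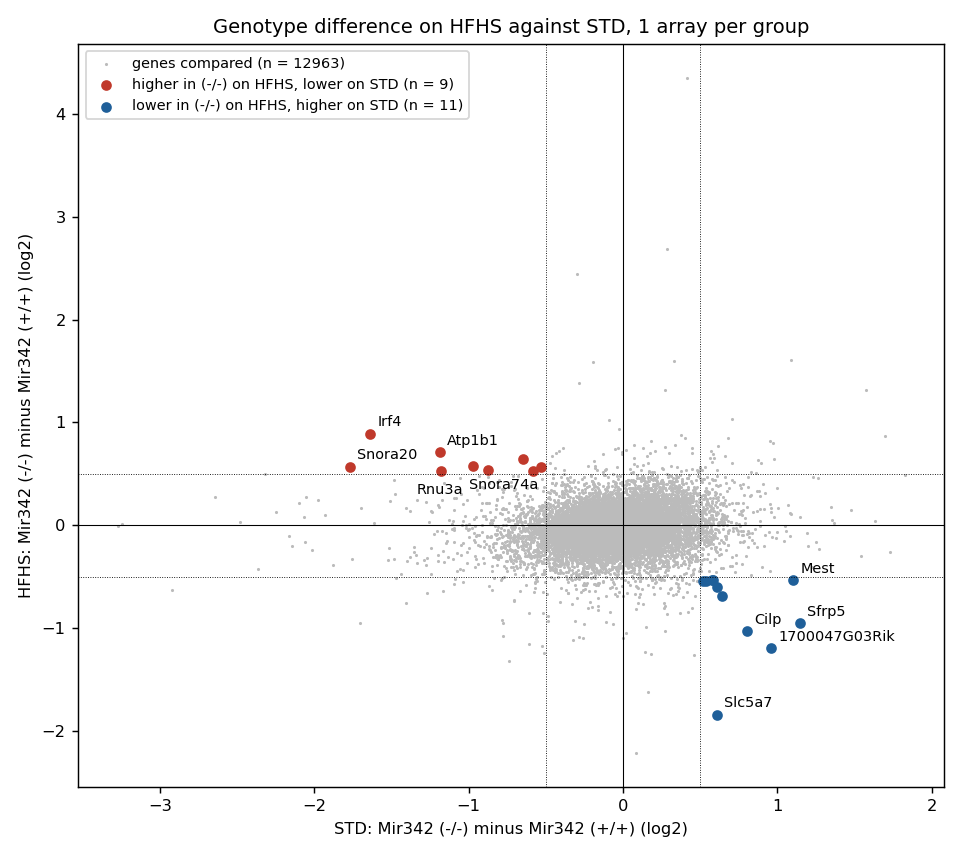
Genotype difference, *Mir342* (-/-) minus *Mir342* (+/+) in log2 units, on HFHS (vertical axis) against STD (horizontal axis), 1 point per gene (n = 12963, 1 array per group). Dotted lines mark 0.5. The 9 genes of the upper left corner (red) and the 11 of the lower right (blue) are those described, and the cloud is wider along the STD axis.

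Among the 9 genes higher in *Mir342* (-/-) on HFHS and lower on STD, *Irf4* had the largest interaction. It encodes a transcription factor of lymphocytes and macrophages that also acts in mouse adipocytes, where fasting induces it. *Irf4* measured 6.73 in HFHS *Mir342* (-/-) and 5.84 in HFHS *Mir342* (+/+), against 8.01 and 9.65 in the same genotypes on STD. The genotype difference was 0.89 on HFHS and -1.64 on STD, which gives an interaction of 2.53. Both STD arrays were above both HFHS arrays, and the *Mir342* (+/+) arrays lay outside the *Mir342* (-/-) arrays at both ends. The diet difference of HFHS minus STD was 2.44-fold in size in *Mir342* (-/-) and 14.1-fold in *Mir342* (+/+), with HFHS the lower in each genotype.

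The start-site region of *Irf4*, from 250 bases before to 50 bases after the start, is shown because the gene had the largest positive interaction of the 20 (RefSeq, GRCm38.p6, chr13:30748983-30749282, plus strand), with a TATA box, TATAAA, in capitals.
Irf4: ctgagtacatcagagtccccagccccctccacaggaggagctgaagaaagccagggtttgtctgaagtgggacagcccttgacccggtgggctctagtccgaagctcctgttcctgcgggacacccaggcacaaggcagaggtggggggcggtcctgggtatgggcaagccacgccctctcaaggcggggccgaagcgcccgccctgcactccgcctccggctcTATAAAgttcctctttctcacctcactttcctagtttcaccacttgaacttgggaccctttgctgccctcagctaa
The same region of *Slc5a7*, which had the lowest interaction as measured, also holds these letters (chr17:54298985-54299284, minus strand).
Slc5a7: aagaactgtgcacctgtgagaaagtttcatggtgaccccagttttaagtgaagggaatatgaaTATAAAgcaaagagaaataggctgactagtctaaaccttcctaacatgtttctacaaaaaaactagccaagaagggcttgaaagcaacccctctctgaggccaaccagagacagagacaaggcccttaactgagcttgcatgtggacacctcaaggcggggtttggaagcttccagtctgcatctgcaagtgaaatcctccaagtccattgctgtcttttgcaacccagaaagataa
A region of this kind was at hand for 15 of the 20 genes. On either strand, TATAAA was in the regions of 2 of these 15, and in 13.6% of 32851 regions of all genes. CCAAT was in those of 6 (*1700047G03Rik*, *Atp1b1*, *Fut11*, *Gstm4*, *Rgs2* and *Sfrp5*), beside 37.4%. The E-box CACGTG was in those of *Slc39a8* and *Slpi*, beside 7.15%, and the nuclear receptor element AGGTCA in those of *Duoxa1* and *Slc39a8*, beside 16.3%. The letters of the cAMP response element, TGACGTCA, and of the glucocorticoid receptor element, AGAACA, were in 0 of the 15, beside 1.79% and 19%. None of these motifs contains another, and a match is a description of the sequence.

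*Rgs2* and *Atp1b1* are signalling and membrane genes of the same direction. *Rgs2* encodes a brake on G protein signalling and measured 7.09, 6.44, 8.41 and 9.06. Its genotype differences were nearly equal in size, 0.65 on HFHS and -0.65 on STD, and as for *Irf4* both STD arrays were above both HFHS arrays. *Atp1b1*, the beta subunit of the sodium-potassium pump, measured 7.46, 6.75, 7.20 and 8.39. Its genotype difference was 0.71 on HFHS and -1.19 on STD, and the diet difference turned with genotype, at 0.26 in *Mir342* (-/-) and -1.64 in *Mir342* (+/+). Related genes showed smaller values: the interaction was 0.13 for *Atp1b2* and 0.21 for *Atp1b3*, other beta subunits, and 0.29 for *Rgs5*.

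A further 3 protein-coding genes of this direction act in secretion or on secreted products. *Fut11*, a fucosyltransferase, measured 7.12, 6.58, 6.73 and 7.61, and its genotype difference was 0.54 on HFHS and -0.87 on STD. *Ptgds*, which makes prostaglandin D2, measured 6.54, 5.98, 6.28 and 6.80, with differences of 0.57 and -0.53. *Scube3*, a secreted glycoprotein, measured 5.61, 5.07, 5.30 and 5.88, with differences of 0.53 and -0.58. All 3 had a higher value on HFHS than on STD in *Mir342* (-/-) and a lower one in *Mir342* (+/+). The other prostaglandin D synthase, *Hpgds*, had an interaction of 0.34 and was lower in *Mir342* (-/-) on both diets.

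The last 3 of the 9 are small nucleolar RNAs, which guide the chemical modification and cleavage of ribosomal RNA precursors in the nucleolus. They were named after their values were seen. *Snora20* measured 4.89, 4.32, 4.86 and 6.63, so that 3 of its 4 values lie under the floor and its value in STD *Mir342* (+/+) alone stands over it. *Rnu3a*, a U3 RNA of the first cleavages of the ribosomal RNA precursor, measured 6.70, 6.17, 6.96 and 8.14. *Snora74a* measured 6.28, 5.70, 6.28 and 7.25. Their interactions were 2.34, 1.71 and 1.55. The HFHS and STD values of *Snora74a* were both 6.28 in *Mir342* (-/-), and its diet difference was -1.56 in *Mir342* (+/+). For *Snora20* both values in *Mir342* (-/-) were under the floor, so its diet difference there cannot be read.

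**Figure D2:**
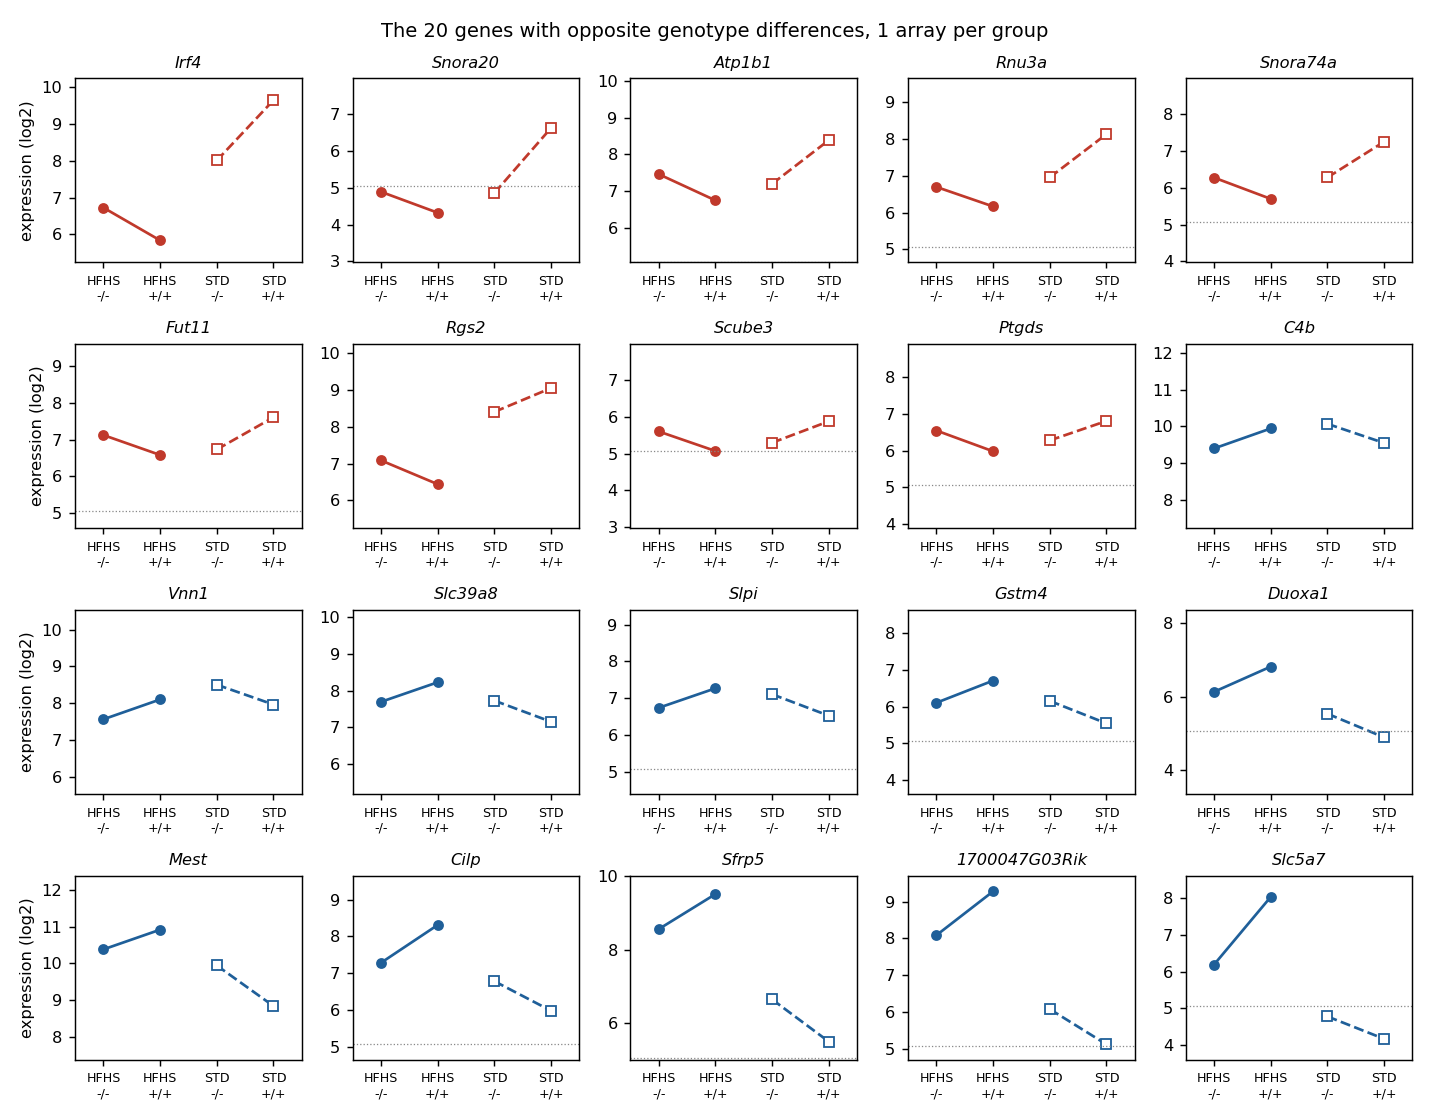
Log2 expression of the 20 genes on each array, with HFHS (filled circles) left of STD (open squares) and *Mir342* (-/-) left of *Mir342* (+/+) on each diet. Lines join the genotypes within a diet, each panel spans the same number of log2 units, and the dotted line is the floor of 5.06. Red panels run downward on HFHS and upward on STD, and blue panels the other way.

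Among the 11 genes lower in *Mir342* (-/-) on HFHS and higher on STD, *Slc5a7* had the lowest interaction as measured, at -2.45, but this rank rests on values under the floor. It encodes the high-affinity choline transporter known from cholinergic nerve endings. *Slc5a7* measured 6.19 in HFHS *Mir342* (-/-) and 8.03 in HFHS *Mir342* (+/+), against 4.78 and 4.17 in the same genotypes on STD. The genotype difference was -1.84 on HFHS and 0.61 on STD. Both STD values lie under the floor, so the difference on STD is one between dim signals. With values under the floor set to the floor, the interaction of *Slc5a7* was -1.84, above those of *1700047G03Rik* (-2.15) and *Sfrp5* (-2.10), and the gene no longer met the rule.

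*Sfrp5* and *Mest* are known as genes that go up together when white fat of mice expands. *Sfrp5*, a secreted inhibitor of Wnt signalling, measured 8.56 in HFHS *Mir342* (-/-) and 9.52 in HFHS *Mir342* (+/+), against 6.65 and 5.50 in the same genotypes on STD. Its genotype difference was -0.95 on HFHS and 1.15 on STD, and its interaction -2.10. *Mest*, an imprinted gene expressed from the paternal copy, measured 10.38, 10.91, 9.94 and 8.84, with differences of -0.54 and 1.10. For both genes the 4 arrays stood in the same order, with HFHS *Mir342* (+/+) highest, then HFHS *Mir342* (-/-), then STD *Mir342* (-/-), and STD *Mir342* (+/+) lowest. The HFHS value was 3.77-fold the STD value for *Sfrp5* in *Mir342* (-/-) and 16.2-fold in *Mir342* (+/+), and for *Mest* 1.36-fold and 4.22-fold.

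The adipocyte hormone *Lep*, leptin, stood in that order as well, at 11.18, 11.48, 10.82 and 9.28. With a genotype difference of -0.30 on HFHS and 1.54 on STD it missed the threshold on HFHS. Relatives of these genes shared the picture in part. Of 10 secreted Wnt inhibitors over the floor, 4 were lower on HFHS and higher on STD (40%, beside 20.1% of all genes). *Sfrp5*, chosen by these signs, is 1 of the 4, and it alone passed 0.5 on both diets. With arrays centred on the genes compared, 3 of the 10 had these signs (30%, beside 23.6% of all genes). Quantile normalization and centring on all probes each gave 5 (50%), beside 24.7% and 19% of all genes. *Sfrp2* measured 7.13, 7.47, 6.61 and 6.53, *Sfrp4* measured 5.85, 6.17, 5.17 and 4.79, and *Sfrp1*, lower in *Mir342* (-/-) on both diets, measured 6.30, 7.23, 6.33 and 6.82. Of 15 imprinted genes, 4 (26.7%, beside 20.1% of all genes) had the signs of *Mest*, itself counted, and 4 (26.7%, beside 21.8%) the reverse. These shares are near those of all genes, and the median interaction of the 15 was -0.11. *Copg2*, the neighbour of *Mest*, measured 8.54, 8.59, 8.43 and 8.20.

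*1700047G03Rik* is annotated as a long noncoding RNA of unknown role and was named after its values were seen. It measured 8.09, 9.28, 6.07 and 5.12, with a genotype difference of -1.19 on HFHS and 0.96 on STD. Its 4 arrays stood in the order of *Sfrp5*, and its diet difference of 17.9-fold in *Mir342* (+/+) was the widest of the 20 genes.

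*Cilp* leads the secreted and matrix genes of this direction. The cartilage intermediate layer protein is an extracellular matrix protein that fibroblasts also make. *Cilp* measured 7.28, 8.31, 6.78 and 5.97, with a genotype difference of -1.03 on HFHS and 0.80 on STD. Of 28 extracellular matrix genes in the list, 13 had these signs (46.4%, beside 20.1% of all genes), and their median interaction was -0.43, beside 0.03 for all genes. The fibrillar collagens *Col1a1*, *Col1a2* and *Col3a1* had interactions of -0.77, -0.83 and -0.92. *Col3a1* measured 9.33, 9.86, 9.18 and 8.80, and its difference of 0.38 on STD kept it out of the 20 genes. Of 15 markers of fibroblasts and preadipocytes, 14 had an interaction under 0, beside 5902 of the 12963 genes compared, but 5 of the 15 are also in the matrix list. Of the other 10, 9 had an interaction under 0, 5 had the signs of *Cilp* (beside 20.1% of all genes), and the median was -0.21. *Pdgfra*, which marks stromal progenitors, measured 8.25, 8.37, 8.75 and 8.51. Fewer cells of a type and less RNA per cell cannot be told apart in whole tissue, and the part of fibroblast number in the *Cilp* result was not tested.

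The remaining genes of this direction belong to defence, redox and transport. *C4b*, a complement component, measured 9.40, 9.95, 10.07 and 9.55, with a genotype difference of -0.54 on HFHS and 0.52 on STD. The probe of its near-identical copy *C4a* was under the floor, at 4.43 or less on every array. *Slpi*, a secreted inhibitor of leukocyte proteases, measured 6.74, 7.27, 7.11 and 6.52. *Vnn1*, a pantetheinase that releases pantothenate, measured 7.56, 8.10, 8.50 and 7.96. *Vnn1* and *C4b* are the only 2 of the 20 genes whose highest array was STD *Mir342* (-/-) and whose lowest was HFHS *Mir342* (-/-).

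Of 20 complement and coagulation genes, 9 (45%, beside 20.1% of all genes) had the signs of *C4b*, itself counted. With arrays centred on the median of all probes, 6 had them (30%, beside 19% of all genes). The median interaction of the list was -0.07, with 8 of 20 above 0, and *Plaur*, a urokinase receptor, at 0.54 and *Thbd*, thrombomodulin, at 0.36 lay on the other side. *Cfb*, complement factor B, was nearest to it at 8.59, 9.03, 8.46 and 7.98, with differences of -0.45 and 0.49. *Serping1*, the C1 inhibitor, had an interaction of -0.55 and *C2* one of -0.50. *C4b* and *Cfb* respond to interferon in many cells, but the part of interferon in their values was not tested. Of 22 interferon response genes, 10 (45.5%, beside 20.1% of all genes) had the signs of *C4b*, with a median interaction of -0.27. No gene of that list met the rule, since *Oasl2*, at -0.52 and 0.19, and *Cxcl9*, with an interaction of -1.07, passed 0.5 on 1 diet only.

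*Slc39a8*, a carrier of zinc and manganese, measured 7.70, 8.23, 7.73 and 7.16, with a genotype difference of -0.53 on HFHS and 0.57 on STD. Its relative *Slc39a14* had the reverse order of the genotypes on STD, at 7.32 in *Mir342* (-/-) and 8.11 in *Mir342* (+/+), and an interaction of 0.58. *Duoxa1*, needed for the maturation of the dual oxidase that makes hydrogen peroxide, measured 6.14, 6.83, 5.54 and 4.90, the last under the floor. The oxidase *Duox2* was under the floor on every array. *Duox1* had a mean under the floor, at 4.85, 5.15, 5.14 and 4.46, with its HFHS *Mir342* (+/+) and STD *Mir342* (-/-) values just over it. Its genotype differences, -0.29 on HFHS and 0.68 on STD, had the signs of *Duoxa1* but rest on dim signals. *Gstm4*, a mu-class glutathione transferase, measured 6.11, 6.71, 6.16 and 5.55, with differences of -0.60 and 0.61. This family has near-identical members, and their values did not move together: the interaction was 0.01 for *Gstm1*, -0.41 for *Gstm2* and 2.51 for *Gstm7*, which measured 5.09, 5.06, 4.73 and 7.21.

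Read across diet, the 20 genes had a common form. The diet difference was larger in size in *Mir342* (+/+) than in *Mir342* (-/-) for 18 of 20 (90%), beside 60.5% of all genes, with *Vnn1* and *C4b* the exceptions. All 9 genes of the first direction were highest in STD *Mir342* (+/+) and lowest in HFHS *Mir342* (+/+). Of the 11 others, 9 were highest in HFHS *Mir342* (+/+) and lowest in STD *Mir342* (+/+). *Irf4*, at -1.28 in *Mir342* (-/-) and -3.81 in *Mir342* (+/+), and *Sfrp5*, at 1.91 and 4.01, kept the direction of the diet difference, and in 10 of 20 (50%, beside 34.4% of all genes) it turned. The same 4 values chose the genes, so this form is a description. The rule itself sets the diet differences of the genotypes apart and limits which arrays can be highest or lowest. All genes are not under that rule, so their shares are not a matched background for this form.

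**Figure D3:**
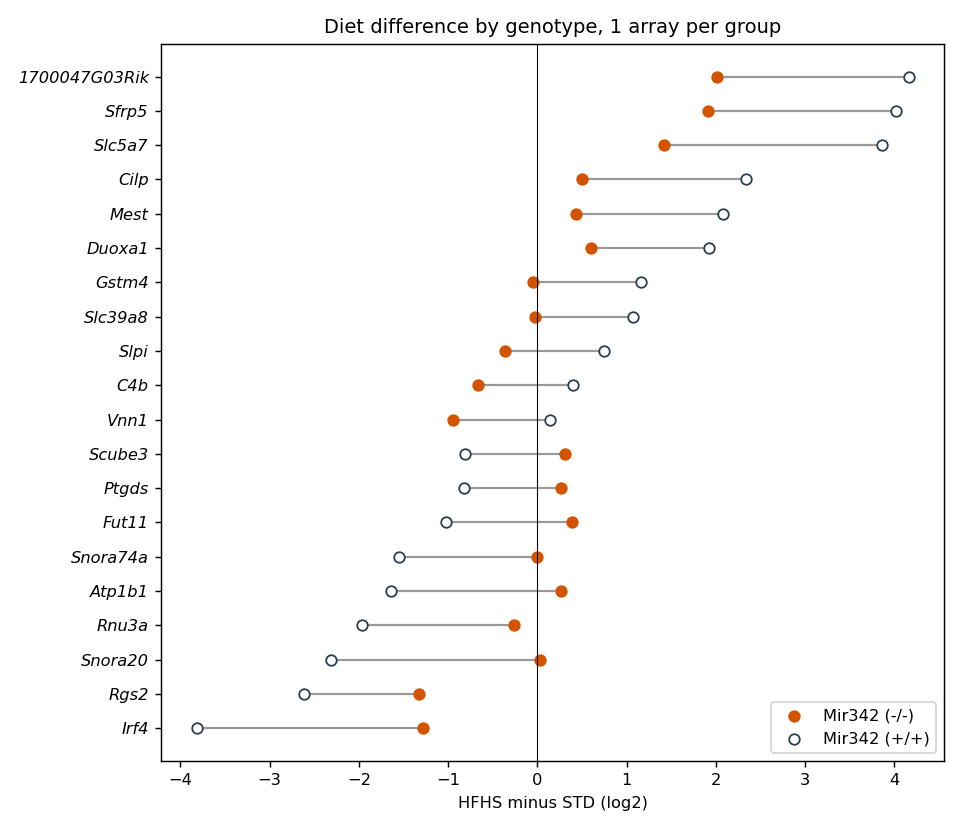
Diet difference, HFHS minus STD in log2 units, for each of the 20 genes in *Mir342* (-/-) (filled) and *Mir342* (+/+) (open), 1 array per group. The open points lie farther from 0 than the filled ones in 18 genes, and the lines cross 0 in 10.

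The 3 small nucleolar RNAs stood with the rest of their class, a list chosen after its values were seen. Of 68 small nucleolar RNAs over the floor, these 3 included, 63 (92.6%) had an interaction above 0, beside 54.4% of all genes. In 45 (66.2%) the genotype difference was positive on HFHS and negative on STD, beside 21.8%. Their median interaction was 0.47, beside 0.03 for all genes, and 0.68 for the 24 of the Snora class. The median level of the 68 was 7.74, 7.55, 8.03 and 8.43 on the 4 arrays, and 61 of them (89.7%, beside 33.5% of all genes) were highest in STD *Mir342* (+/+). With no floor, 69 of 79 were. *Snora75* was the next below *Snora20*, at 7.66, 7.22, 7.94 and 9.42. It missed the rule on HFHS, where its difference was 0.44.

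Most small nucleolar RNAs of mammals are cut from introns of host genes, so that the host gives a second reading of the same locus. A host was found by position for 51 of the 68 (strand was not used), in 41 genes. The median interaction was 0.44 for these 51 small RNAs and 0.16 for their 41 hosts, and 38 of the 51 lay above their host. *Tcp1*, a chaperonin subunit and the host of *Snora20*, measured 8.41, 8.40, 8.44 and 8.57, an interaction of 0.15 beside 2.34 for *Snora20*. *Snhg4*, the host of *Snora74a*, had 0.01 beside 1.55. An interaction of at least 0.5 was seen in 21 of the 51 small RNAs with a host (41.2%), *Snora20* and *Snora74a* among them. It was seen in 2 of the 41 hosts (4.88%), and the share of all genes at 0.5 was not counted. An interaction of at least 1 was seen in 7 of the 68 small nucleolar RNAs, *Snora20*, *Rnu3a* and *Snora74a* included, and in 0.91% of all genes.

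**Figure D4:**
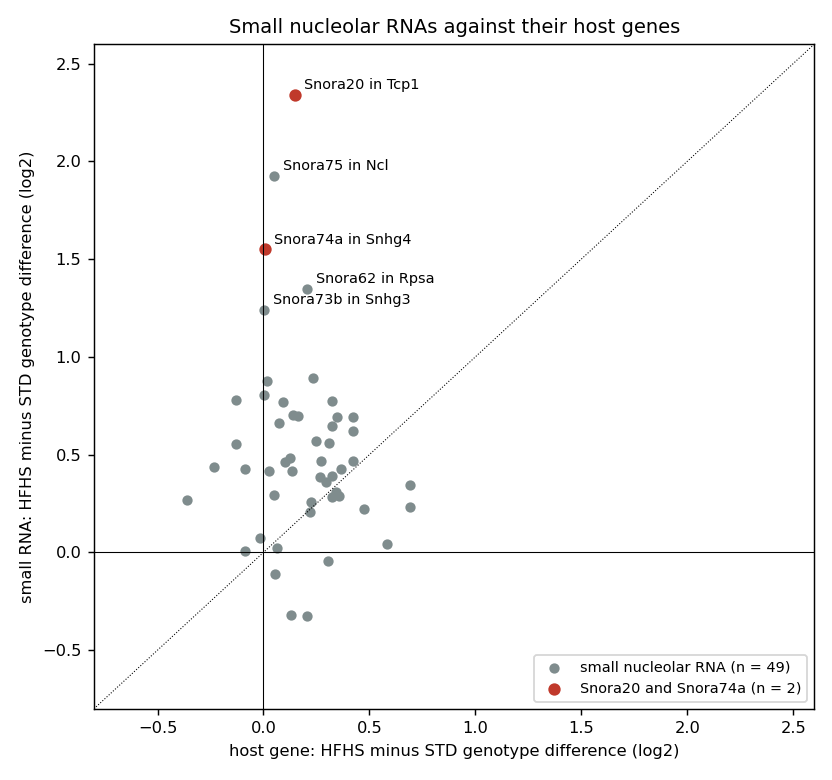
Interaction (HFHS minus STD genotype difference, log2) of 51 small nucleolar RNAs against that of the gene whose span holds each, with *Snora20* and *Snora74a* in red. The dotted line marks equal values, and 38 of 51 points lie above it.

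Other values moved with the array that was highest for all 9 genes of the first direction. Of the 18 duct epithelial markers on the array, with no floor applied, 14 were highest in STD *Mir342* (+/+). Of the 12963 genes compared, all with a mean over the floor, 33.5% were. Of the 18 markers, 10 had a mean over the floor, *Cuzd1* and *Prom1* through that array alone. The median interaction was 0.69 over the 18. Of the 8 markers over the floor on every array, 6 were highest there. *Mmp7*, a protease of duct epithelium, measured 5.14, 5.14, 5.44 and 8.71. The epididymis and testis list had 2 of 18 markers over the floor. All 14 endothelial markers over the floor had an interaction above 0, beside 54.4% of all genes, with a median of 0.38. After quantile normalization 13 of 14 did, beside 46.9% of all genes, and with centring on the genes compared 13 of 14, beside 44.8%. *Vwf* measured 7.46, 7.57, 7.23 and 8.11. The B and plasma cell list, which holds *Irf4*, was mixed. Of its 11 genes over the floor, 6 were highest in HFHS *Mir342* (-/-), beside 2262 of the 12963 genes compared. An interaction below 0 was seen in 4 of the 11, beside 5902 of the 12963. *Ighg3*, an immunoglobulin heavy chain gene, measured 8.65, 4.30, 4.88 and 4.47, with 3 of its 4 values under the floor. The part of any of these cell types in the values of the 20 genes was not tested, and an interaction cannot be computed without any 1 of the 4 arrays.

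**Figure D5:**
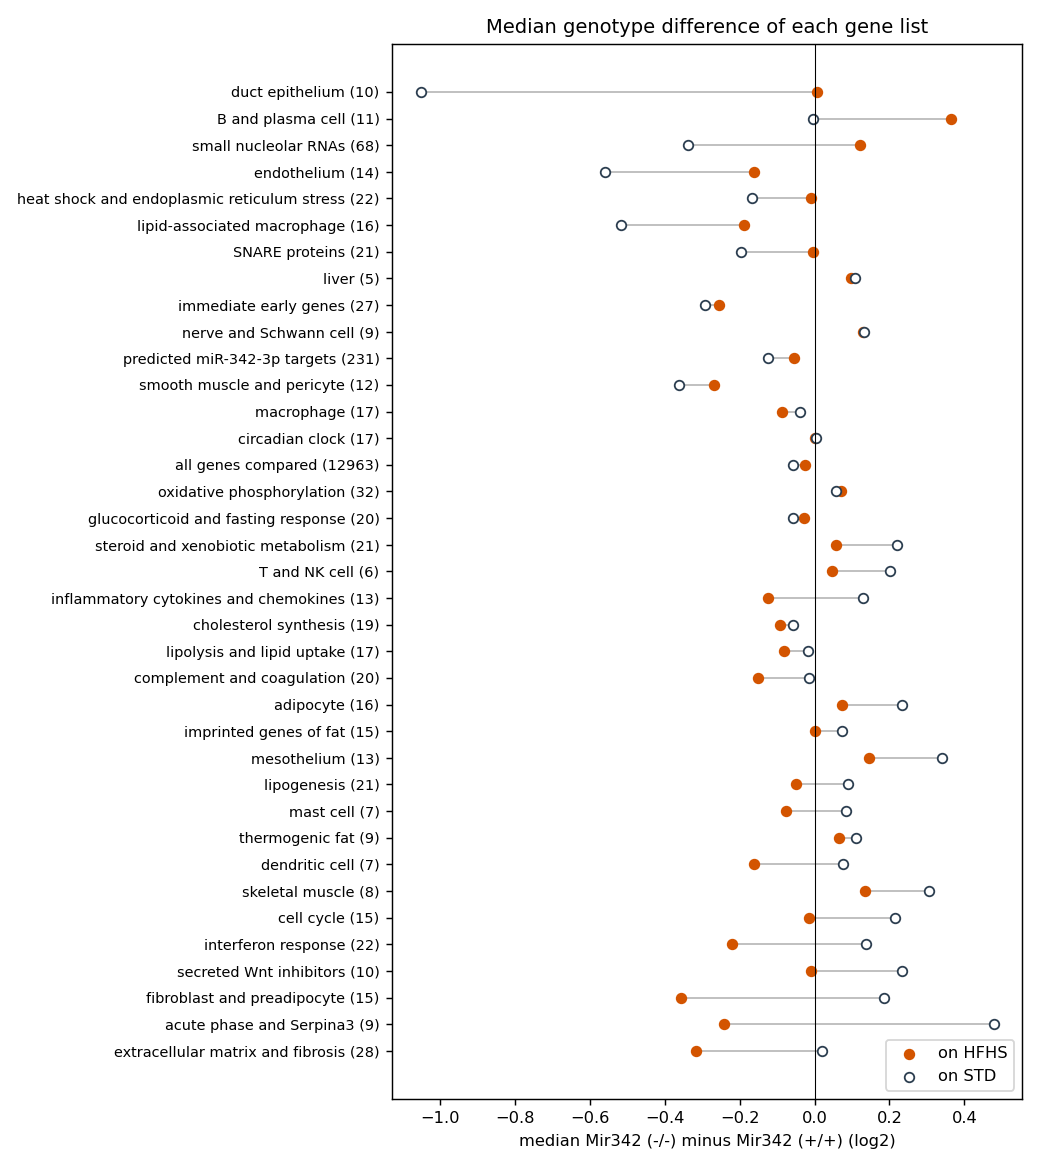
Median genotype difference, *Mir342* (-/-) minus *Mir342* (+/+) in log2 units, of each gene list with at least 5 genes over the floor (number in brackets), on HFHS (filled) and on STD (open), ordered by median interaction with the most positive at the top. Duct epithelium lies farthest left on STD, through a list that includes markers over the floor in STD *Mir342* (+/+) alone, and the extracellular matrix and fibroblast lists, at the lower end, lie left of 0 on HFHS.

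Of the symbols predicted as targets of miR-342-3p, 279 were on the array and 231 over the floor. Of these 231, 0 were among the 20 genes, but only 0.154% of all genes were, so this count is near the background. The targets had a median genotype difference of -0.06 on HFHS and -0.12 on STD. Of these, 56 (24.2%, beside 21.8% of all genes) were higher on HFHS and lower on STD, and 36 (15.6%, beside 20.1%) the reverse. After quantile normalization these counts were 50 (21.6%, beside 19.8% of all genes) and 51 (22.1%, beside 24.7%). With arrays centred on the genes compared they were 50 (21.6%, beside 19.6%) and 49 (21.2%, beside 23.6%).

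The 20 genes are a small part of the genes with an interaction of at least 1 in size as measured, which was not tested. An interaction of at least 1 was seen in 118 genes (0.91%) and of -1 or lower in 75 (0.579%). In 172 of these 193 the smaller of the genotype differences was under 0.5. The difference on STD was the larger in 150 of the 193, beside 8344 of all 12963 genes (64.4%). *Mmp7* had an interaction of 3.27 through STD and did not meet the rule, and neither did *Ighg3*, at 3.94 through HFHS with 3 values under the floor. As contrasts of equal weight, the average diet difference had a median size of 0.151 log2 units, the average genotype difference 0.122 and the interaction, scaled to the same weight, 0.0954. Their 99th percentiles were 1.10, 0.627 and 0.554.

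Of the genes just inside the threshold, *Slpi*, *Ptgds* and *C4b* had smaller differences of 0.530, 0.528 and 0.520. Just outside, *Pipox*, *Gm5476* and *Lhfpl2* had 0.497, 0.487 and 0.483. *Pipox*, a peroxisomal oxidase, measured 5.20, 4.70, 5.11 and 7.43. Only 3 of the 20 genes had another probe. The second probe of *Fut11* gave 0.11 on HFHS and -0.24 on STD, and that of *Rgs2*, under the floor, 0.07 and -0.96. That of *Scube3*, also under the floor, gave the opposite signs, -0.48 and 0.29, so *Scube3* has no second reading on its side. Rescaling the arrays also moved genes across the threshold: *Mest*, *Ptgds*, *Scube3*, *Slc39a8*, *Slpi* and *Vnn1* no longer met it with arrays centred on the median of the genes compared, and *C4b*, *Rnu3a*, *Scube3* and *Vnn1* with arrays centred on that of all probes. The interaction kept its sign in each, but centring shifts the interaction of every gene by the same small amount.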

How the data were processed

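Expression was measured in epididymal fat on 4 arrays, 1 per group of genotype and diet, and each array was assigned from its sample labels. Each deposited value is the log2 signal of 1 transcript cluster, as the authors gave it, with a normalization "not given in the sources used here". No further normalization was applied. Of 41345 probes, 23521 name a single gene, 1820 name several and 16004 name none in the annotation of the array. For single genes, the probe with the highest mean was kept per gene (22180 genes). Genes with a mean over 5.06, the 95th percentile of 1443 olfactory, vomeronasal and taste receptor probes, were compared (12963). Genotype, diet and their interaction use all contrasts of 4 arrays and leave 0 residual degrees of freedom, so no test was made and no p is given.

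The genes, lists and rules were chosen with earlier results of these data known. Named genes are the members with the largest interactions, members in a list, those at the edge of the threshold, and *Mir342*, *Evl* and *Snap25*; relatives, host genes, list examples, *1700047G03Rik* and the small nucleolar RNAs were named after their values were seen. Lists are described by counts and medians beside all genes. Predicted targets are the 301 symbols of the study's list, of which 9 were renamed through RefSeq synonyms. Alternatives were quantile normalization, centring, other floors, probe means and other thresholds. Sequences are from RefSeq (GRCm38.p6). The steps were tested on simulated data. Scripts ran in Python 3.11.15 with pandas 2.3.3, numpy 2.4.6 and, for plots, matplotlib 3.10.9.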

Additional observations from a re-analysis of the deposited data

Results flagged for a closer look

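Every one of the 20 genes drew attention because its genotype difference ran in opposite directions on the 2 diets. With 1 array per group this difference between diets was not tested, and the genes were chosen for it. For the genes higher in *Mir342* (-/-) on HFHS and lower on STD, the interactions were 2.53 for *Irf4*, 2.34 for *Snora20*, 1.90 for *Atp1b1*, 1.71 for *Rnu3a*, 1.55 for *Snora74a*, 1.42 for *Fut11*, 1.29 for *Rgs2*, 1.11 for *Scube3* and 1.09 for *Ptgds*. For the reverse direction they were -2.45 for *Slc5a7*, -2.15 for *1700047G03Rik*, -2.10 for *Sfrp5*, -1.83 for *Cilp*, -1.64 for *Mest*, -1.33 for *Duoxa1*, -1.21 for *Gstm4*, -1.11 for *Slpi* and for *Slc39a8*, -1.08 for *Vnn1* and -1.06 for *C4b*. Arrays that a closer look would start from are STD *Mir342* (+/+), the highest for 9 of these genes, and HFHS *Mir342* (+/+), the highest for another 9.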

How the results depend on the processing

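No paired analysis was possible because each group has 1 array. For the same reason no replicate could be left out. The interaction of all 20 genes kept its sign under the 5 alternatives that give each gene a value. These were quantile normalization, centring on either median, values under the floor set to it, and probe means. Of 100 values, 91 moved by at most 0.1, but most of the 100 could not move further. Centring shifts the interaction of every gene by the same small amount. Probe means can change only the 3 genes with another probe, and the floor only the 3 with a value under it. Membership did change. Of the 20 genes, 17 remained under quantile normalization, 16 with arrays centred on the median of all probes, 14 with centring on the genes compared, and 17 with probe means, where *Fut11*, *Rgs2* and *Scube3* dropped out (*Scube3* at 0.17). With values under the floor set to the floor, 17 remained, without *Slc5a7*, *Snora20* and *Duoxa1*. A total of 7 genes remained under all 5: *Irf4*, *Atp1b1*, *Snora74a*, *Sfrp5*, *1700047G03Rik*, *Cilp* and *Gstm4*. The interaction medians of the 12 lists recomputed kept their sign under the 3 scalings, of which the 2 centrings move every median by the same amount. Of the 28 matrix genes, 11 (39.3%, beside 19% of all genes) had the signs of *Cilp* with arrays centred on all probes. With arrays centred on the genes compared, 17 did (60.7%, beside 23.6%), and 14 (50%, beside 24.7%) after quantile normalization.

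With no floor there were 18 genes in each opposite direction, and 50 higher and 50 lower on both diets. With the floor raised by 1, 16 of the 20 genes remained, without *Duoxa1*, *Scube3*, *Slc5a7* and *Snora20*, and 9 genes were higher and 27 lower on both diets. Centring on the genes compared gave 46 higher and 17 lower on both diets. A threshold of 0.4 gave 34 and 40 genes in the opposite directions, and 62 higher and 93 lower on both diets. At 0.75 these counts were 1, 3, 5 and 5, and at 1 they were 0, 0, 2 and 0, with no test behind any of them. The median interaction of the duct epithelial list was 0.69 with no floor, 1.52 with the floor raised by 1 and 0.54 with probe means. With the raised floor, medians were -0.38 for interferon response, -0.30 for imprinted genes and -0.60 for secreted Wnt inhibitors. The cause of these shifts was not tested, beyond the fewer or more genes each floor leaves.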

Other observations

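Probes that carry no gene symbol or several symbols were set aside from the report. Of 7374 such probes over the floor, 71 (0.963%) were higher in *Mir342* (-/-) on HFHS and lower on STD by at least 0.5, and 37 (0.502%) the reverse. A further 77 (1.04%) were higher and 123 (1.67%) lower on both diets.

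Among genes of large interaction outside the 20, immediate early genes, which cells switch on within minutes of a stimulus, did not move as a group. *Fos* measured 5.75, 7.37, 5.90 and 5.73 and was high in HFHS *Mir342* (+/+), with an interaction of -1.78. *Nr4a3*, a nuclear receptor, measured 5.35, 5.08, 5.93 and 7.98 and was high in STD *Mir342* (+/+), with an interaction of 2.33. Of 27 such genes over the floor, 6 (22.2%, beside 21.8% of all genes) had the signs of *Irf4* and 3 (11.1%, beside 20.1%) those of *Sfrp5*. The acute phase genes *Orm1*, at 8.53, 8.94, 7.59 and 6.37, and *Lcn2*, at 7.22, 7.46, 7.19 and 9.20, had interactions of -1.63 and 1.77.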
